A study of Mus musculus with 9 samples.

Results

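Genes that deliver fatty acids to fat cells were followed in periprostatic fat, which surrounds the prostate. It was taken from C57BL/6J males fed a high fat diet (60 kcal% fat, D12492i, 5 mice) or a low fat diet (10 kcal% fat, 12450Bi, 4 mice). All mice started their diet at 6 weeks of age, ate it for 12 weeks and were 18 weeks old at sampling. No transgene or other treatment is named for either group. The genes were 10 symbols chosen by name: Lpl, Gpihbp1, Lmf1, Angptl4, Cd36, Fabp4, Slc27a1, Acsl1, Vldlr and Lrp1. Of these, 9 had a probe set with a single gene symbol, and they stand among 22180 genes tested in all. Acsl1, a long chain acyl-CoA synthetase, was not analysed here. Values are log2 expression from 1 Affymetrix Mouse Gene 2.0 ST array per mouse, so precision is limited by how many mice there were. High fat mouse 1 and low fat mouse 2 stood apart in muscle markers, and member results whose call changes without them are given both ways. In whole tissue, fewer cells of a type and less RNA per cell cannot be told apart.

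Circulating triglyceride reaches adipocytes mainly after lipoprotein lipase has split it at the capillary wall. The lipase is made mainly by the adipocyte, folded with the help of Lmf1, carried across the endothelium by Gpihbp1 and inactivated by Angptl4. The released fatty acids are bound by Cd36, moved in and activated by Slc27a1 and Acsl1 and held in the cytosol by Fabp4, while Vldlr and Lrp1 bind and take up lipoprotein particles. Several of these genes are also active in macrophages, which take up lipid in obese fat.

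The enzyme, the scavenger receptor and the binding protein that adipocytes make in bulk (Lpl by its brighter probe set, Cd36 and Fabp4) did not pass, while 5 of the other genes changed, in both directions. Lpl, Cd36 and Fabp4 rank 12, 14 and 5 by mean level among the 22180 genes, and saturation of their probe sets was not tested. Fabp4 passed with arrays centred on their medians, and a dimmer Lpl probe set was 1.70-fold lower in high fat mice. Slc27a1 was 1.57-fold lower in high fat mice and Lmf1 1.22-fold lower. Vldlr was 1.5-fold higher, Angptl4 1.31-fold higher and Lrp1 1.28-fold higher. Of the 9 genes, 3 rose, 2 fell and 4 did not pass the threshold, which was a limma adjusted p of 0.05 with Benjamini-Hochberg adjustment over all genes. Over all 22180 genes 21.5% passed, 12.4% higher and 9.13% lower in high fat mice. All 9 genes are bright, the dimmest being Lmf1 at percentile 85.6 of mean level. With genes below the median level left out, 4480 of 11090 genes passed, 2548 higher and 1932 lower, a larger share than over all genes. With each array centred on its median the split over all genes was 2227 higher and 3056 lower, against 2742 and 2026 as deposited. The median difference of the 9 genes was -0.065 and that of all genes -0.0011 on the log2 scale. The median size of the difference, without its sign, was 0.28 for the 9 genes and 0.089 for all genes, most of which are dimmer. It was not compared with genes of like level. High fat and low fat mice were fully separated in 5 of the 9 genes, the same 5 that passed. Over all genes they were separated in 20.7%, 11.6% higher and 9.15% lower in high fat mice.

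**Figure D1:**
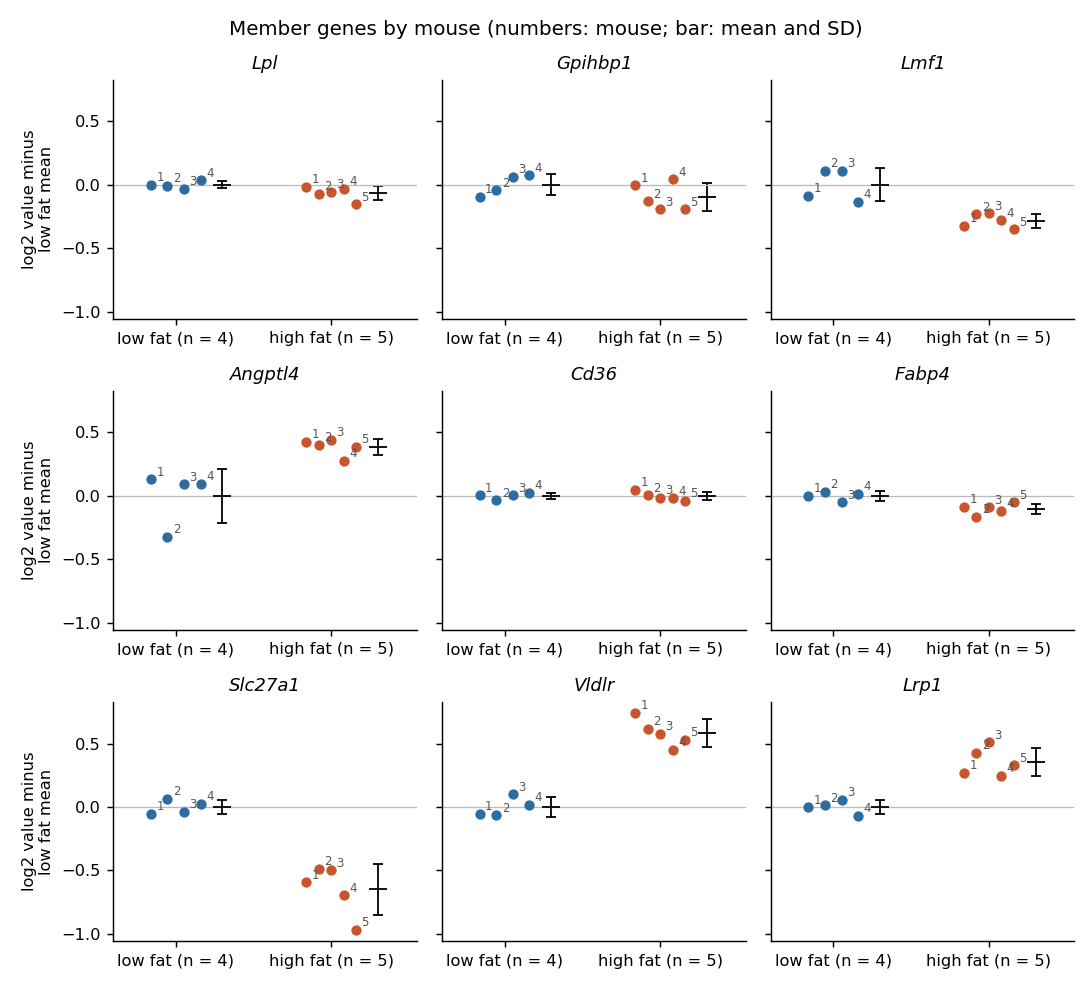
Log2 value of each of the 9 genes in every mouse, minus that gene's low fat mean, on 1 shared vertical axis in log2 units. Points are mice with their number, blue low fat (n = 4) and orange high fat (n = 5), and bars give the mean and SD. The high fat mice lie apart from the low fat mice in Lmf1, Angptl4, Slc27a1, Vldlr and Lrp1, and they overlap or touch them in Lpl, Gpihbp1, Cd36 and Fabp4.

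Markers of the labelled tissue were present. The adipocyte list (10 of 12 genes measured) had a mean log2 level of 11.8 to 12.0 in high fat mice and 12.3 to 12.4 in low fat mice, against a median of about 6.5 over all rows of an array. All 10 fell, with a median difference of -0.37, led by the glucose transporter gene Slc2a4 (-1.20) and Acvr1c (-0.89). All 12 macrophage markers rose (median 1.05), among them Cd68 (1.87) and Tyrobp (1.46). So did all 7 markers of lipid-associated macrophages measured (median 3.33), among them Atp6v0d2 (4.98) and Gpnmb (3.59). The marker lists were chosen with earlier results of these data known, so their counts are not independent evidence. Over all genes 12.4% were called higher and 9.13% lower in high fat mice. Of 8 fibroblast markers measured 5 rose, among them Lum (2.16) and Col1a1 (1.25), and 3 did not pass. Of 12 endothelial markers 2 fell, Kdr (-0.26) and Robo4 (-0.25), and 10 did not pass. Both lost the call without high fat mouse 2, 3 or 5 or any of low fat mice 2 to 4, and without high fat mouse 4 (Kdr) or 1 (Robo4). Of 7 brown adipocyte markers Ppargc1a (-0.73) and Cidea (-0.99) fell. The other 5 did not pass and pointed both ways, from -0.30 to 0.34. Cidea lost the call without high fat mouse 3, 4 or 5 or low fat mouse 1, 2 or 4. None of the 10 skeletal muscle markers passed limma (Pvalb 0.84, Myh2 0.35), none of the 8 smooth muscle markers (Acta2 0.35, Myh11 -0.48) and none of the 6 mesothelial markers (Msln 0.70, Lrrn4 0.43). None of the 10 prostate and seminal vesicle markers passed limma either (Svs6 -0.10, Svs2 -0.060), and their mean level was 5.53 to 5.68, below each array's median. The keratin genes Krt8 and Krt18 of that list, named after their values were seen, lay above the median gene (percentiles 61.9 and 52.5). In the muscle, mesothelial and prostate lists only 1 gene, Acta2, had an unadjusted p under 0.05. Without low fat mouse 2 Acta2 passed (0.52), and without that mouse and high fat mouse 1 together Myh2 passed (0.31, limma adjusted p = 0.0307). Without high fat mouse 1 Pvalb was at 0.40 and Myh2 at 0.15, without low fat mouse 2 Myh11 was at -0.024, and without low fat mouse 4 Msln was at 0.39 and Lrrn4 at 0.18. High fat mouse 1 had a skeletal muscle marker mean of 8.52, where mice 2 to 5 of that diet had 6.41 to 6.49. Low fat mouse 2 had a smooth muscle marker mean of 10.1, where its 3 diet mates had 7.95 to 8.02. What part a change in cell types has in the gene differences was not tested.

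**Figure D2:**
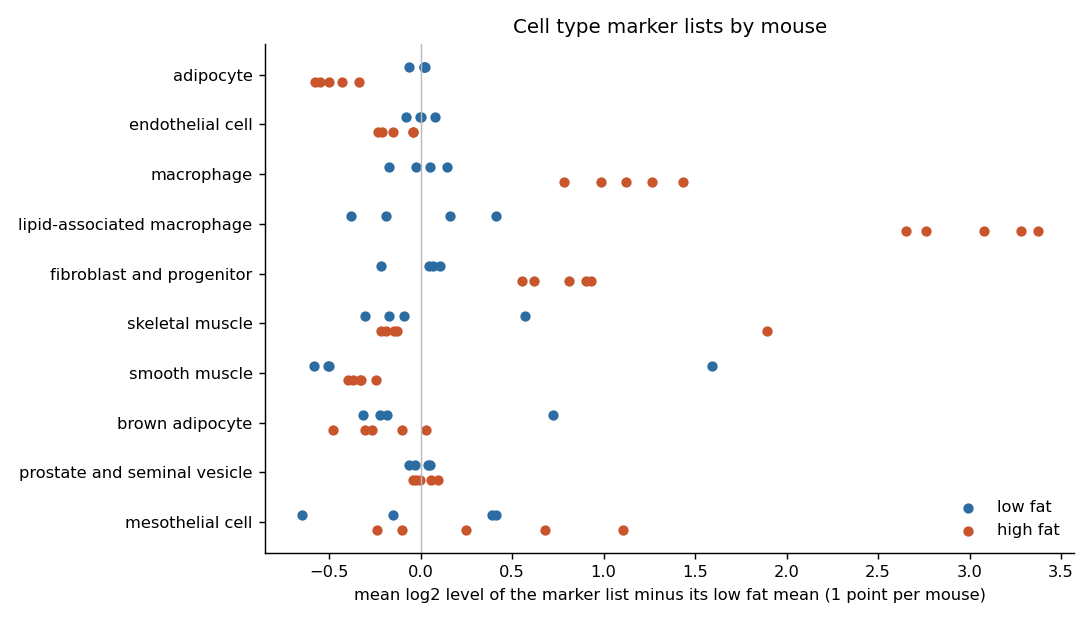
Mean log2 level of each cell type marker list in every mouse, minus the list's low fat mean (horizontal axis, log2 units). Each point is 1 mouse, blue low fat and orange high fat. Adipocyte markers lie lower and both macrophage lists and fibroblast markers higher in all 5 high fat mice, and high fat mouse 1 (skeletal muscle) and low fat mouse 2 (smooth muscle, brown adipocyte) lie apart.

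The stretches of 250 bases before the annotated start are shown for Slc27a1, Lmf1, Vldlr and Lrp1, which changed, and for Cd36, which did not pass, so that the sequences of members that moved in opposite directions stand side by side. RefSeq entries on GRCm38.p6 were matched for 6 of the 10 listed genes, these 5 and Acsl1, and not for Lpl, Gpihbp1, Angptl4 or Fabp4, and where a gene has several starts the furthest upstream is given. Each is written 5′ to 3′ on the gene's strand. Capitals mark matches, on either strand, to AGGTCA (a repeat unit in sites of nuclear receptors such as the PPAR and RXR proteins), to ACGTG (the core of sites for hypoxia-inducible factors), to CCAAT (a common promoter box), to TATAAA (the box bound by the TATA-binding protein) and to GGGCGG (the box of Sp1-type factors).
Slc27a1 (chr8:71568621-71568870, + strand): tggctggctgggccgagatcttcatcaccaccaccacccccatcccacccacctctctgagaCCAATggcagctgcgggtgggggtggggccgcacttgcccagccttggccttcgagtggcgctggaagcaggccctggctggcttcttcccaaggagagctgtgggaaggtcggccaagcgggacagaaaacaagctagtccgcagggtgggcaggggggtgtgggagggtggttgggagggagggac
Lmf1 (chr17:25578924-25579173, + strand): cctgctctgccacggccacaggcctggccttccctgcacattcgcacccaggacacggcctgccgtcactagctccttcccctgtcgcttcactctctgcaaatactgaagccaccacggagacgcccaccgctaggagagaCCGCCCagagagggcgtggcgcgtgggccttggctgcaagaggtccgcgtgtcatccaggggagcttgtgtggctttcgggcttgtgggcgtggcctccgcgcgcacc
Vldlr (chr19:27216234-27216483, + strand): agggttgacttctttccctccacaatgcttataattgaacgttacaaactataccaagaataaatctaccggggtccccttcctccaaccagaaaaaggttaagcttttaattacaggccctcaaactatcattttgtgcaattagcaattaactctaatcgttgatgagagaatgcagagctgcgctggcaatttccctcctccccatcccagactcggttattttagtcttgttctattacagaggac
Lrp1 (chr10:127621149-127621398, - strand): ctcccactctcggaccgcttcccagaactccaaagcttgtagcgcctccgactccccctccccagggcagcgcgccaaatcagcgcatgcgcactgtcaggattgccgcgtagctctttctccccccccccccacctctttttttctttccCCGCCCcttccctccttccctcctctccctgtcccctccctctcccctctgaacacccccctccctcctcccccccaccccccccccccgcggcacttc
Cd36 (chr5:17835897-17836146, - strand): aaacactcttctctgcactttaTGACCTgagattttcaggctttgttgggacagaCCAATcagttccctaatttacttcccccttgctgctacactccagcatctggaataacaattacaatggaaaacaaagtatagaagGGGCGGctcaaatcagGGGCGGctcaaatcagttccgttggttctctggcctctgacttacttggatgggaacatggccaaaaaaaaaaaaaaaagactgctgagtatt
AGGTCA was matched in the Cd36 stretch, at -228 from the start, and in none of the other stretches shown. It occurs in 14.0% of all 32851 RefSeq stretches of this length. GGGCGG was matched in Lmf1, Lrp1 and Cd36 and occurs in 32.7%, and CCAAT was matched in Slc27a1 and Cd36 and occurs in 33.8%. The Vldlr stretch held no match to any of the motifs. ACGTG, which occurs in 16.6%, was in none of the stretches shown, and TATAAA, which occurs in 12.4%, was in none of the stretches shown. In the starts further downstream, ACGTG was matched in Slc27a1, and CCAAT and GGGCGG in Slc27a1 and Vldlr. A match describes these letters only.

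Lpl, the gene of the lipase itself, had 2 probe sets that disagreed. The brighter, which represents the gene by the rule used for all genes, read 13.70, 13.65, 13.66, 13.69 and 13.56 in high fat mice 1 to 5 and 13.72, 13.71, 13.69 and 13.75 in low fat mice 1 to 4. The groups overlapped. The difference was -0.065 ± 0.040 (SE) at a limma adjusted p of 0.302, with a 95% interval of -0.15 to 0.02. The dimmer probe set, examined after its values were seen, read 9.20, 9.68, 9.71, 9.64 and 9.21 in high fat mice 1 to 5 and 10.48, 10.61, 9.90 and 10.04 in low fat mice 1 to 4. Every high fat mouse lay below every low fat mouse. Its difference was -0.77 ± 0.17 (SE), 1.70-fold lower, with a 95% interval of -1.15 to -0.39 and a limma adjusted p of 0.00974 when it stood in for the gene. Leaving out 1 mouse at a time gave -0.89 to -0.65, and the call held in all 9 cases (limma adjusted p from 0.00679 to 0.0312). It was lost with high fat mouse 1 and low fat mouse 2 left out together (-0.58, limma adjusted p = 0.0526). The mean of both probe sets gave -0.42. The sources used here do not say which part of the Lpl transcript each probe set reads.

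**Figure D3:**
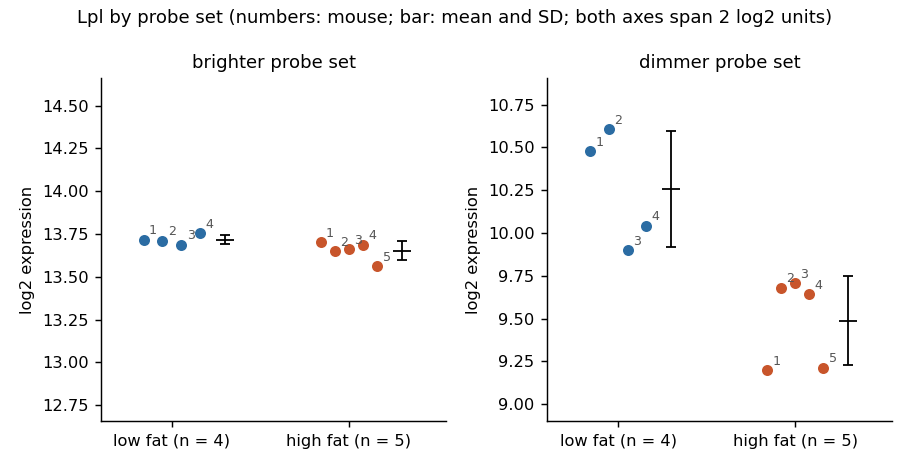
Log2 expression of the brighter (left) and the dimmer (right) Lpl probe set in every mouse, on vertical axes that each span the same number of log2 units. Points are mice with their number, blue low fat and orange high fat, and bars give the mean and SD. The brighter set lies between 13.56 and 13.75 in all mice, and the dimmer set lies at 9.20 to 9.71 in high fat mice and 9.90 to 10.61 in low fat mice.

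Lmf1, the endoplasmic reticulum protein that lipases need to mature, fell. Its log2 values were 9.26, 9.35, 9.36, 9.31 and 9.23 in high fat mice 1 to 5 and 9.50, 9.70, 9.70 and 9.45 in low fat mice 1 to 4. The groups did not overlap, and the lowest low fat mouse lay 0.09 above the highest high fat mouse. The difference was -0.28 ± 0.06 (SE), and the limma adjusted p was 0.00926. With high fat mouse 1 and low fat mouse 2 left out together, the mice that stood apart in muscle markers, the difference was -0.24 and no longer passed (limma adjusted p = 0.0555).

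Angptl4, the secreted inhibitor that unfolds the lipase, rose. High fat mice 1 to 5 read 12.06, 12.04, 12.08, 11.91 and 12.02, and low fat mice 1 to 4 read 11.77, 11.32, 11.73 and 11.73. Low fat mouse 2 was the lowest of all, and the groups did not overlap. The difference was 0.39 ± 0.09 (SE), with a limma adjusted p of 0.0124. Without low fat mouse 2 it was 0.28, and limma gave a smaller adjusted p (0.0041). Without high fat mice 1 and 2 together, whose arrays had the widest spread of values, it was 0.37 and did not pass (limma adjusted p = 0.0745).

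Gpihbp1, the endothelial protein that holds the lipase in the capillary, ranged from 9.76 to 9.99 in high fat mice and from 9.86 to 10.03 in low fat mice, so the groups overlapped. The difference was -0.10 ± 0.06 (SE) at a limma adjusted p of 0.343, with a 95% interval of -0.24 to 0.05. The 12 endothelial markers had a median difference of -0.11.

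Cd36, the fatty acid translocase and scavenger receptor, ranged from 13.55 to 13.64 in high fat mice and from 13.55 to 13.61 in low fat mice. The difference was -0.0032 ± 0.04 (SE), and its 95% interval of -0.08 to 0.08 bounds a change of the deposited value in either direction. Fabp4, the fatty acid-binding protein of adipocytes, capillaries and macrophages, ranged from 13.73 to 13.84 in high fat mice and from 13.84 to 13.92 in low fat mice, and the groups met at 13.84. The difference was -0.10 ± 0.04 (SE), with a 95% interval of -0.19 to -0.02, and it did not pass (limma adjusted p = 0.0900). With arrays centred on their medians Fabp4 passed (-0.15, limma adjusted p = 0.0285), whereas quantile normalization repeated over the table turned it to 0.027. Lpl and Cd36 turned too under that setting, to 0.050 and 0.056, and none of them passed in the positive direction. The values of these genes lie near the top of the scale, where each array ends at 14.1 to 14.2. Saturation of these probe sets was not tested.

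Slc27a1, a fatty acid transport protein that also activates fatty acids to acyl-CoA, showed the largest difference of the 9 genes by their brightest probe sets, smaller than that of the dimmer Lpl probe set. It read 11.02, 11.13, 11.12, 10.92 and 10.64 in high fat mice 1 to 5, and 11.56, 11.68, 11.58 and 11.64 in low fat mice 1 to 4. All high fat mice lay at least 0.43 below the lowest low fat mouse, with mouse 5 the lowest. The difference was -0.65 ± 0.09 (SE), with a limma adjusted p of 0.000914, and it stayed between -0.72 and -0.57 under every alternative run. Larger differences, in either direction, were found in 4.71% of all genes.

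Vldlr, the receptor for very low density lipoprotein, read 10.52, 10.40, 10.36, 10.24 and 10.31 in high fat mice 1 to 5 and 9.73, 9.72, 9.88 and 9.80 in low fat mice 1 to 4. The groups were 0.35 apart at their closest. The difference was 0.58 ± 0.06 (SE), with a limma adjusted p of 0.000206. Lrp1, a large endocytic receptor of remnant particles that macrophages and fibroblasts also carry, read 11.93, 12.09, 12.17, 11.91 and 11.99 in high fat mice and 11.66, 11.68, 11.72 and 11.60 in low fat mice, in order of mouse number. The groups were 0.19 apart at their closest. The difference was 0.36 ± 0.06 (SE), with a limma adjusted p of 0.00219. Both receptors passed under every alternative run, with differences of 0.52 to 0.62 for Vldlr and 0.31 to 0.38 for Lrp1.

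**Figure D4:**
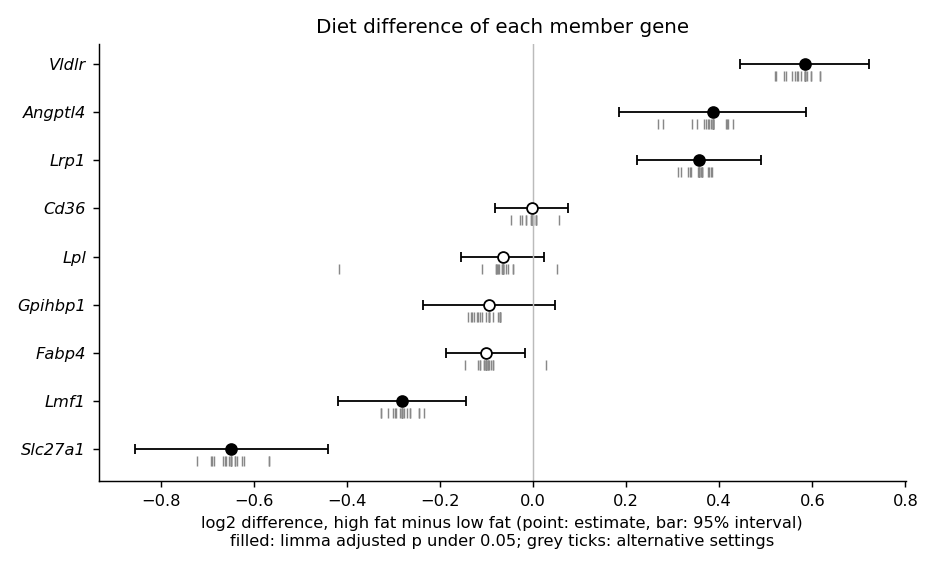
Difference of each gene between the diets (horizontal axis, log2, high fat minus low fat). Points are estimates with 95% intervals, filled where the limma adjusted p is under 0.05, and grey ticks are the values under alternative settings. Vldlr, Angptl4 and Lrp1 lie to the right of 0 and Slc27a1 and Lmf1 to the left, and the Lpl tick at -0.42 is the mean of its probe sets, while the dimmer Lpl probe set is not drawn.

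Partner genes were compared within each array, as the difference of their log2 values, which shows whether their changes were unequal. These 5 comparisons used a two-sided exact permutation test over all 126 assignments of the mice, whose smallest possible p is 0.0159. Lpl minus Angptl4, enzyme against inhibitor, was 0.45 lower in high fat mice than in low fat mice, without overlap (exact p = 0.0159). Adjusted over the 5 pairs that p was 0.0529. Angptl4 alone differed by 0.39 and the brighter Lpl probe set by -0.065, so this pair largely restates the Angptl4 difference. Cd36 minus Fabp4 was higher in high fat mice by 0.10 (exact p = 0.0317) and Vldlr minus Lrp1 by 0.23 (exact p = 0.0317), each with an adjusted p of 0.0529. Cd36 alone differed by -0.0032 and Fabp4 by -0.10, so Cd36 minus Fabp4 largely restates the Fabp4 difference, which did not pass. Lpl minus Lmf1 was higher by 0.22 (exact p = 0.0476, adjusted 0.0595), where Lmf1 alone differed by -0.28. For Lpl minus Gpihbp1 the difference was 0.03 (exact p = 0.587). No pair passed after adjustment with the values as deposited. With quantile normalization repeated, 4 of the 5 passed (adjusted exact p = 0.0397 each): Lpl minus Angptl4 at -0.33, Lpl minus Gpihbp1 at 0.17, Lpl minus Lmf1 at 0.35 and Vldlr minus Lrp1 at 0.22. Under that setting Cd36 minus Fabp4 was 0.029 (exact p = 0.556). That setting also moved the median difference of the 100 brightest genes, Lpl among them, from -0.013 to 0.046. Lpl alone moved from -0.065 to 0.050. What part this shift has in the pairs that passed was not tested. With the mean of its probe sets in place of the brighter, Lpl minus Lmf1 was -0.13 and Lpl minus Gpihbp1 -0.32, both turned in sign. Lpl minus Angptl4 was -0.80 there (exact p = 0.0159, adjusted 0.0529).

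The genes whose profile lay nearest to a member over the 9 arrays were found for Slc27a1 and Vldlr, the members that passed with a difference of at least 0.5. Likeness was the root mean square distance between log2 profiles centred on their means. Predicted and unnamed gene models were left out. A gene picked by this distance has a similar diet difference by construction. For Slc27a1, whose own profile had a root mean square of 0.35, the nearest were Pdha1 (distance 0.09, difference -0.59), a subunit of pyruvate dehydrogenase, and Phka2 (0.10, -0.54), a regulatory subunit of phosphorylase kinase. For Vldlr, at 0.30, they were Rcan1 (0.05, 0.56), a regulator of calcineurin, and Ap2m1 (0.07, 0.54), a subunit of the clathrin adaptor at the plasma membrane.

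Other genes of the pathway were grouped by role. Of 59 listed, 54 were measured, 4 rose, 7 fell and 43 did not pass, with a median difference of 0.038, beside 21.5% called over all genes. With arrays centred on their medians 4 rose and 14 fell. None of 12 fatty acid transport proteins, caveolar and related genes passed limma, in either direction, and 6 had an unadjusted p under 0.05. The largest difference there was that of Scarb1, the receptor of high density lipoprotein (-0.16, limma adjusted p = 0.0642). Scarb1 passed with quantile normalization repeated, with arrays centred, with dim genes left out and without low fat mouse 1.

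None of 5 acyl-CoA synthetases measured passed limma, and 1 had an unadjusted p under 0.05, Acsl5 at 0.22 (limma adjusted p = 0.0524), and Acsl5 passed under 5 of 20 alternatives, among them without high fat mouse 5 (0.25) or low fat mouse 1 (0.26). Of 8 fatty acid-binding proteins Fabp7 rose, 1.63-fold, at 8.03 ± 0.18 (SD, n = 5) against 7.32 ± 0.34 (SD, n = 4). The limma adjusted p of Fabp7 was 0.00772, and without high fat mice 1 and 2 together it did not pass (0.64, limma adjusted p = 0.0576). Fabp5, the binding protein of skin and macrophages, was at 10.3 ± 0.30 (SD, n = 5) against 9.82 ± 0.34 (SD, n = 4), a difference of 0.51 that did not pass (limma adjusted p = 0.0740). Fabp5 passed without high fat mouse 4 (0.61) and with dim genes left out (0.51, limma adjusted p = 0.0448).

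Among the lipase relatives and regulators, 1 of 7 measured rose and 1 fell. Sel1l, a component of endoplasmic reticulum quality control that the lipase needs to leave that compartment, rose by 0.26 ± 0.04 (SE, limma adjusted p = 0.00188). Apoe, a ligand of lipoprotein receptors, fell by 0.25 ± 0.05 (SE, limma adjusted p = 0.00838). Angptl8, which acts on the lipase with its relatives, read 9.35, 9.13, 9.57, 9.52 and 9.26 in high fat mice 1 to 5 and 8.68, 10.26, 8.64 and 8.45 in low fat mice 1 to 4. It did not pass (0.36, limma adjusted p = 0.498). Low fat mouse 2, lowest in Angptl4, was highest in Angptl8, and without it the Angptl8 difference was 0.77 and passed (limma adjusted p = 0.00154). Without low fat mouse 4 it was 0.17.

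Of 11 other lipoprotein receptors and adaptors measured, 2 rose and 1 fell. Sort1, the sorting receptor sortilin, fell by 0.49 ± 0.05 (SE, limma adjusted p = 0.000226). Lrp12 rose by 0.60 ± 0.16 (SE, limma adjusted p = 0.0222) and Lrp4 by 0.43 ± 0.11 (SE, limma adjusted p = 0.0202). Lrp4 read 7.14 ± 0.09 (SD, n = 5) against 6.71 ± 0.27 (SD, n = 4), near the median of all genes, and its groups overlapped. Lrp12 lost the call without high fat mouse 1 (0.57) or 2 (0.54) or low fat mouse 3 (0.57) or 4 (0.58), and Lrp4 without low fat mouse 3 (0.39) or 4 (0.34). Both also lost it without high fat mice 1 and 2 (0.47 and 0.42) and without high fat mouse 1 and low fat mouse 2 (0.62 and 0.42). Lrp2 was at 0.48 and did not pass (limma adjusted p = 0.0853), and passed without low fat mouse 1 (0.61).

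Of 11 transcriptional and vascular regulators 5 fell and none rose, beside 9.13% called lower and 12.4% higher over all genes. All of this list lie above the median level. With genes below that level left out, 1932 of 11090 genes were called lower and 2548 higher. Vegfb, an endothelial growth factor tied to fatty acid transport, was 1.63-fold lower and Cebpa, a transcription factor of adipocyte maturity, 1.51-fold lower. Ppara was 1.39-fold lower, Rxrg 1.34-fold and Pparg, the adipocyte regulator that many genes described here respond to, 1.27-fold. Limma adjusted p ran from 0.00018 for Vegfb to 0.00564 for Pparg, and Pparg was named after its value was seen. Tcf15, which acts in capillary endothelium, was at -0.27 and did not pass (limma adjusted p = 0.275), with -0.16 without low fat mouse 1.

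**Figure D5:**
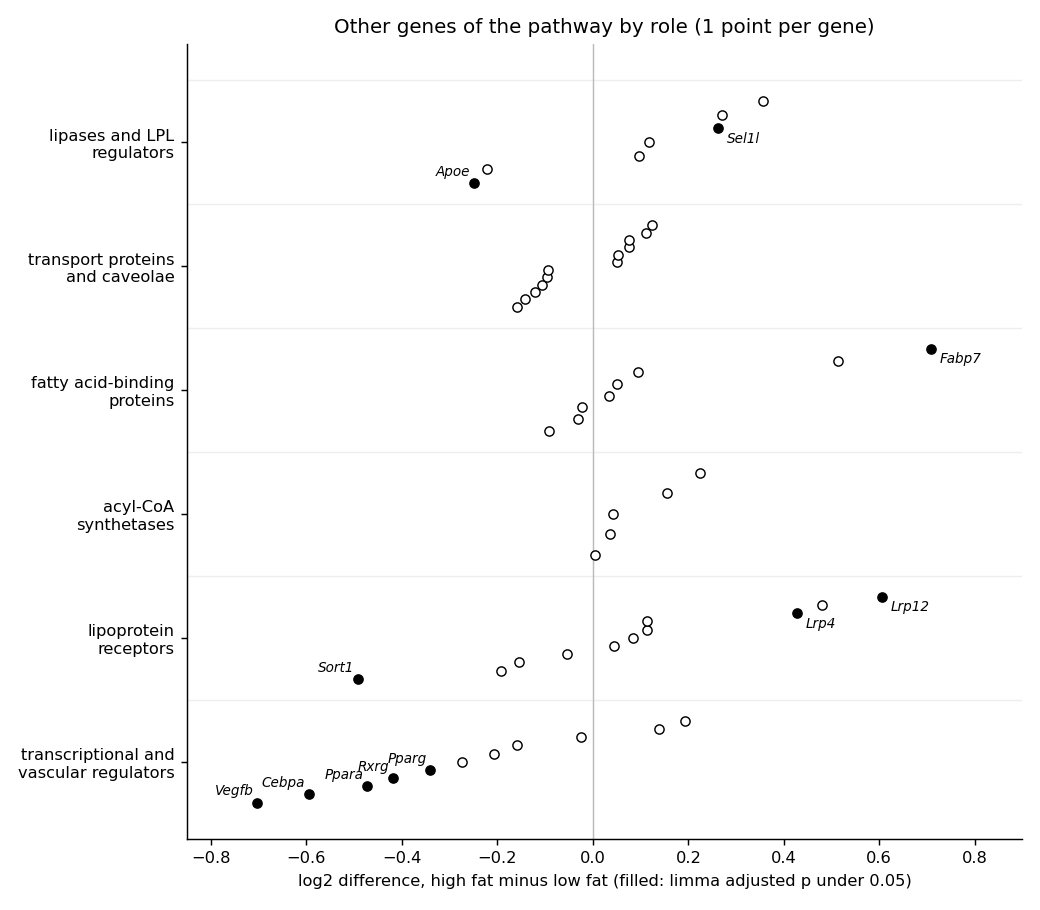
Difference of each of 54 other pathway genes between the diets (horizontal axis, log2, high fat minus low fat), grouped by role. Each point is 1 gene, filled and named where the limma adjusted p is under 0.05. The 5 regulators that passed all lie to the left of 0, and no transport protein or acyl-CoA synthetase passed.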

How the data were processed

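The deposited table holds log2 expression values per probe set for 9 arrays, 1 mouse each. Per the submitters' processing notes the authors' tools include RMA, limma and R 3.5.0; which step each served is not given there. RMA corrects background, equalises distributions across arrays and summarises probes, so a shift common to most genes is removed. Scan batches and detection calls were not used. Of 33793 rows, 23521 carry a single gene symbol, and the brightest probe set per symbol left 22180 genes.

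Diet was tested with limma 3.58.1 in R 4.3.3 (lmFit and eBayes, intercept and diet, no covariate), with Benjamini-Hochberg adjustment over all 22180 genes. Exact permutation tests used scipy 1.17.1. Tested on simulated data of 22180 genes for this comparison, limma recovered, of 50 genes changed by each size, 18 (log2 change of 0.25), 39 (0.5), 49 (1) and all 50 (2). Of its 166 calls 10 were false. The simulation changed only these genes, a far smaller share than the 21.5% called in the data, with noise drawn independently per gene. The share recovered in the data may therefore differ. Outside the members, named genes are, per pathway list, those called (at most the 4 with the smallest p) and the largest difference not called, and per marker list the 2 with the smallest p, besides the 2 genes nearest in profile to a called member with a difference of at least 0.5. The members and lists were chosen with earlier results of these data known. Alternatives covered scaling, probe choice, filters, weighting of arrays, variance estimation, a block for mouse number and leaving out mice. The dimmer Lpl probe set and leaving out high fat mouse 1 with low fat mouse 2 were added after seeing the data.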

Additional observations from a re-analysis of the deposited data

Results flagged for a closer look

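Mice that stood far from the others of their diet were looked for in 40 groups of values (genes, the dimmer Lpl probe set and marker lists), and 5 were found. Chance gives about 1 in 20 groups. Angptl4 was 11.3 in low fat mouse 2, below the other low fat mice. The same mouse stood apart in the mean level of smooth muscle markers (10.1) and of brown adipocyte markers (7.98). The skeletal muscle marker mean of 8.52 in high fat mouse 1 and the adipocyte marker mean of 12.3 in low fat mouse 1, below 12.4 in the other low fat mice, were the others.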

How the results depend on the processing

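Slc27a1, Vldlr and Lrp1 kept direction and call under all alternatives run, and Lmf1 and Angptl4 under all but the exceptions given here. Fabp4 gained the call with arrays centred (-0.15), Lpl with the mean of its probe sets (-0.42) or the dimmer one (-0.77), Angptl4 lost it without high fat mice 1 and 2 (0.37) and Lmf1 without high fat mouse 1 and low fat mouse 2 (-0.24). The signs turned of Lpl (0.050), Cd36 (0.056) and Fabp4 (0.027) with quantile normalization repeated, and of Cd36 without high fat mouse 4 (0.00057) or 5 (0.0055) or low fat mouse 4 (0.0051). Calls among the other pathway genes rose from 11 to 18 with arrays centred, whose median over all genes shifted to -0.05. With quantile normalization repeated, 4 pairs passed: Lpl minus Angptl4 (-0.33), Lpl minus Gpihbp1 (0.17), Lpl minus Lmf1 (0.35) and Vldlr minus Lrp1 (0.22). That setting moved the median difference of the 100 brightest genes, Lpl among them, from -0.013 to 0.046. With the mean of probe sets Lpl minus Gpihbp1 (-0.32) and Lpl minus Lmf1 (-0.13) turned. The causes were not tested.

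Leaving out each mouse in turn gave 3759 to 4364 genes called over all, 5 of the 9 members each time and 9 to 16 of the other pathway genes. The ranges were -0.08 to -0.04 for Lpl, -0.13 to -0.07 for Gpihbp1, -0.33 to -0.24 for Lmf1, 0.28 to 0.43 for Angptl4, -0.016 to 0.0055 for Cd36 and -0.12 to -0.09 for Fabp4. With 3 high fat and 4 low fat mice the exact test of a pair cannot pass, so only values were compared there. Mouse numbers are shared between the diets, but same-number pairs correlated at only 0.05 to 0.13 in their deviations from the group means, and other pairs at -0.16 to 0.16. With the replicate block 4036 genes were called, 5 members and 12 other pathway genes. High fat mouse 5, which has no partner, adds nothing to that fit, and Cd36 turned to 0.0055. The block is a check of the numbers only, since nothing states that they pair the mice. Signal over background was not determined.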
